A study of Mus with 3 samples.

Results

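The genes that encode subunits of the oxidative phosphorylation complexes were followed in mouse hippocampus on 3 one-colour microarrays. Members were taken by name from the array's annotation: all genes whose name starts with Ndufa, Ndufb, Ndufc, Ndufs, Ndufv, Uqcr, Cox4i, Cox5, Cox6, Cox7, Cox8 or Atp5, and Sdha to Sdhd, without Ndufaf names, pseudogenes and clone names. This gave 85 genes on 120 probes, of 22833 named genes on 39429 probes. Of these, 82 members could be compared over all 3 arrays: 38 of 38 named for complex I, 4 of 4 for complex II, 8 of 8 for complex III, 16 of 18 for complex IV and 16 of 17 for complex V. A name is not a place in a complex. Atp5s and Atp5sl are known today as assembly-related factors, Cox7a2l acts in joining complexes III and IV, and the product of Ndufa4 is now counted with complex IV, but each was kept where its name puts it.

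Oxidative phosphorylation takes place in the inner mitochondrial membrane. Complexes I and II pass electrons from NADH and succinate to ubiquinone, complex III passes them on to cytochrome c, and complex IV hands them to oxygen. Complexes I, III and IV pump protons as they work, and complex V, the ATP synthase, lets the protons back to make ATP, which neurons spend mainly on ion pumping and synaptic transmission. Most subunits are encoded in the nucleus, as all members here are, and 13 are encoded in mitochondrial DNA. Amyloid peptides are widely studied for their effects on neuronal mitochondria.

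The mice were male, of the strain Slc:ddY and 6 weeks old. Normal controls (NCO) received distilled water by mouth for 15 days and 5 µL of distilled water on day 8, at a site the labels do not spell out. The ACO mice received the same oral water and, on day 8, 5 µL with 10 nmol of the amyloid fragment Aβ25-35 into the cerebral ventricles. The ASO mice received the peptide too, with shochu oil by mouth at 2000 mg per kg per day for the 15 days. Shochu is a distilled spirit, made here from sweet potato, and the oil is a fraction of it. The protocol names the injected groups once with a group name that no sample carries, which was read here as ASO. Every mouse was tested in a Y-maze on day 16, a test of working memory, before the hippocampus was taken. The peptide was injected once, and no group received the oil without the peptide. RNA of 10 mice, prepared as 5 sets of 2, was pooled in equal amounts into 1 array per group, so the spread between mice was not measured, and no difference below has a test or a p-value.

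All 7 markers of hippocampal neurons were well above background on every array, Prox1 and C1ql2 of the dentate gyrus and Wfs1 and Fibcd1 of CA1 among them. Between 50.9% and 53.7% of probes were well above background on an array. Signals below are fluorescence intensities after background correction and scaling of each array to a common 75th percentile, and differences are on the log2 scale after 50 was added, so that 1.2-fold is 0.263. The signal of a probe depends on the probe as well as on its RNA, so levels were not compared between genes. The only error that the arrays hold is technical. Over 250 probes printed at 10 spots each, the median SD of the difference between spots was 0.085 for ACO minus NCO, 0.094 for ASO minus ACO and 0.098 for ASO minus NCO. In a piece of tissue, fewer cells of a type and less RNA per cell cannot be told apart.

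Most members were slightly lower on the ACO array than on the NCO array and slightly higher on the ASO array than on the ACO array. The 3 comparisons share arrays, and a low value on ACO enters both of these. For ACO minus NCO, 61 of 82 members were lower and 21 higher, with a median difference of -0.054, while 48.0% of all 12897 genes compared were lower and 52.0% higher and their median was 0.0053. At 1.2-fold, 6 members were lower and 0 were higher, against 2.66% and 2.78% of all genes. For ASO minus ACO, 61 members were higher and 21 lower, with a median of 0.11, while 46.5% of all genes were higher and 53.5% lower, with a median of -0.016. At 1.2-fold, 18 members were higher and 1 was lower, against 9.99% and 9.50% of all genes, and at 1.5-fold 3 members were higher, against 1.57%. For ASO minus NCO, 51 members were higher and 31 lower, with a median of 0.046, while 46.8% of all genes were higher and 53.2% lower. At 1.2-fold, 11 were higher and 4 lower, against 10.2% and 8.37% of all genes, and at 1.5-fold 2 were higher and 0 lower, against 1.62% and 0.364%.

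How many members stood on either side depended on how the arrays were scaled. For ASO minus ACO, quantile normalization left 45 members higher and 37 lower, and scaling to a common median 42 and 40. Past 1.2-fold, the split of 18 and 1 became 12 and 2 with quantiles and 7 and 5 with the common median. Atp5a1, Atp5k, Atp5l, Atp5o, Ndufa2, Ndufa8 and Uqcr10 were past it under all 3 scalings. The common median itself moved the median of all genes to -0.12 in that comparison. Relative to the median of all genes, the members' median was 0.13 higher with the common 75th percentile, 0.060 with quantiles and 0.12 with the common median. For ACO minus NCO, 49 members were lower with quantiles and 51 with the common median, and the members' median relative to that of all genes was -0.060, -0.028 and -0.058 under the 3 scalings. Cox6a2, Cox6b1, Ndufb2 and Sdhd were lower by 1.2-fold under all 3. For ASO minus NCO the sign of the members' median turned. It was 0.046, but -0.0033 with quantiles, where 40 were higher, and -0.044 with the common median, where 31 were. Relative to the median of all genes it did not turn, at 0.062, 0.031 and 0.052 under the 3 scalings. Past 1.2-fold that comparison gave 8 higher and 5 lower with quantiles and 5 and 7 with the common median.

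Members were also mostly bright, and with the common 75th percentile the genes at or above the members' median signal showed the same pattern. Of the 82 members, 68 lay among the brightest 3224 of the genes compared. Those 3224 genes as a whole did not show it, with medians of -0.015 for ACO minus NCO, -0.019 for ASO minus ACO and -0.041 for ASO minus NCO. The 664 genes at or above the members' median signal of 12029 had medians of -0.056 for ACO minus NCO, 0.078 for ASO minus ACO and 0.026 for ASO minus NCO. The 41 brighter members were counted among these genes. Of these bright genes, 72.4% were lower for ACO minus NCO and 66.6% were higher on ASO than on ACO. At 1.2-fold, 19.4% of them were higher and 3.77% lower on ASO than on ACO. The members' own shares were 74.4% and 74.4% at any size, with 18 and 1 of 82 past 1.2-fold. With quantile normalization, which gives the 3 arrays 1 distribution of signals, 7.85% of the bright genes were higher and 11.2% lower by 1.2-fold on ASO than on ACO, beside 14.6% and 2.44% of the members, and the medians of the bright genes turned to 0.0065, -0.052 and -0.051 in the 3 comparisons. With the common median they were -0.031, -0.037 and -0.064. Among the members, the rank correlation between signal and difference was 0.023 for ASO minus ACO and -0.17 for ACO minus NCO over 82 genes that share the same arrays. The 41 brighter members had a median of 0.095 for ASO minus ACO and the 41 dimmer ones 0.12. For ACO minus NCO these medians were -0.063 and -0.036. The 79 cytosolic ribosomal protein genes, another bright family, showed a median of -0.065 for ACO minus NCO and 0.21 for ASO minus ACO, with 68 of 79 higher in the latter.

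**Figure D1:**
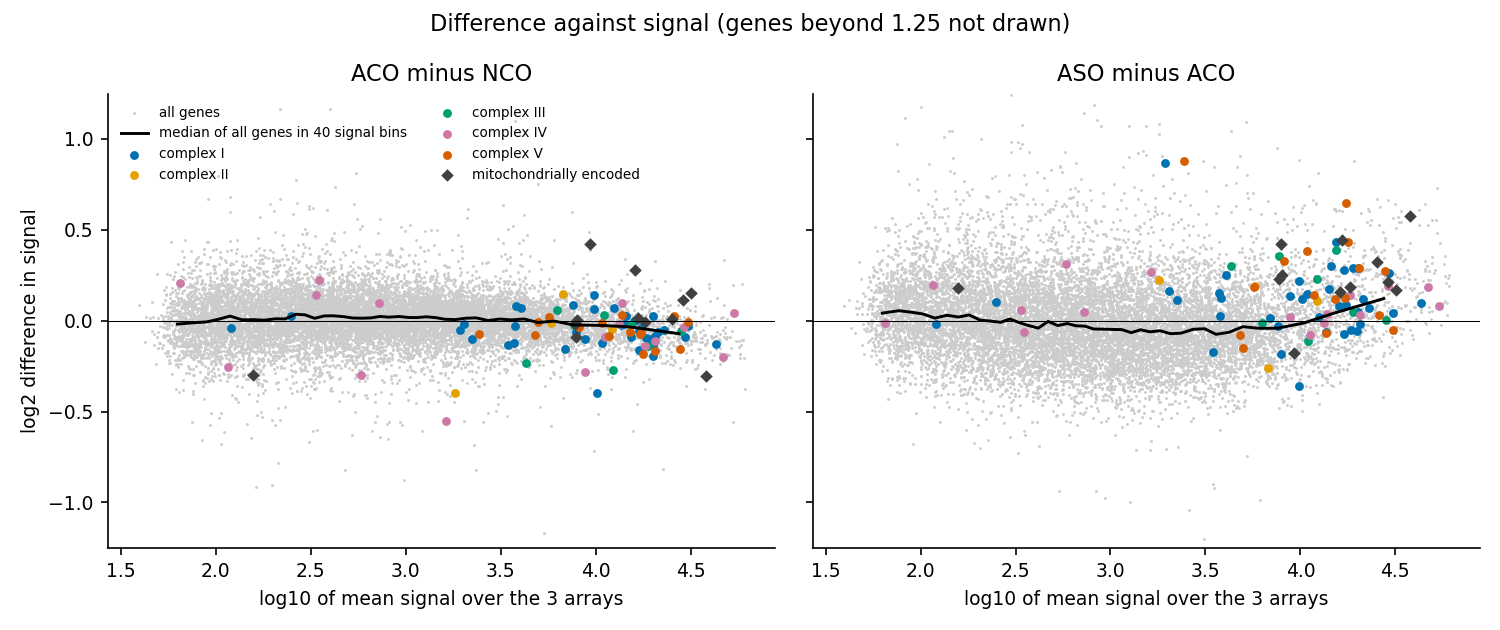
Difference in log2 signal (vertical axis) against the log10 of the mean signal over the 3 arrays (horizontal axis) for ACO minus NCO (left) and ASO minus ACO (right). Grey points are all genes compared, the black line is their median in 40 bins of signal, coloured points are members by complex and dark diamonds are the mitochondrially encoded subunits; the black line bends down at the bright end on the left and up on the right, where most members lie.

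Taken gene by gene, 49 of 82 members had their lowest signal on ACO, against 28.1% of all genes and 52.9% of the bright genes. The ASO array held the highest signal for 47 members, or 57.3%, against 36.7% of all genes and 52.4% of the bright ones. With quantile normalization 33 members were lowest on ACO and with the common median 30, or 40.2% and 36.6%, against 23.7% and 30.4% of the bright genes. Under these scalings 34 and 25 members were highest on ASO, or 41.5% and 30.5%, against 31.6% and 31.3% of the bright genes. With the common median 38 members were highest on NCO. The 5 spike-in control probes, RNAs added in fixed amounts, differed by a median of -0.14 for ACO minus NCO, 0.48 for ASO minus ACO and 0.34 for ASO minus NCO. For ACO minus NCO, 67 of 82 members lay above the spike-in median, as did 88.5% of all genes, so relative to the spike-ins most members were higher on ACO, where 61 were lower with the common 75th percentile. For ASO minus ACO 3 of 82 members lay above it, and 2.77% of all genes. For ASO minus NCO 5 of 82 did, and 6.23% of all genes, so relative to the spike-ins most members were lower on ASO than on either other array.

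**Figure D2:**
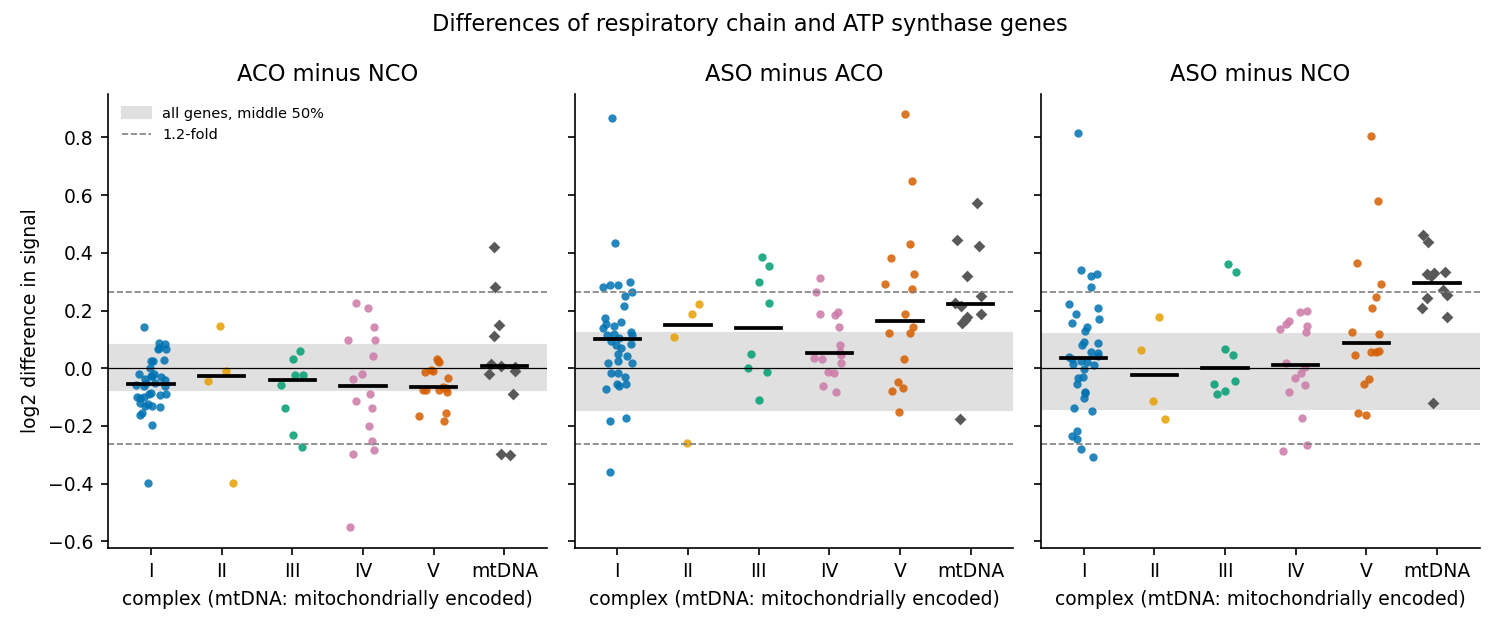
Difference in log2 signal (vertical axis) of each measured member by complex I to V, and of the mitochondrially encoded subunits (mtDNA), in the 3 comparisons. Each point is 1 gene, the thick bar is the median of its column, the grey band holds the middle 50% of all genes and the dashed lines mark 1.2-fold; Atp5o and Ndufa8 stand highest in both comparisons with ASO, and Cox6b1 stands lowest for ACO minus NCO.

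Complex I takes electrons from NADH and has the most subunits. On ACO 29 of its 38 members were lower than on NCO, with a median of -0.056, and on ASO 28 were higher than on ACO, with a median of 0.10. With quantiles, 23 were lower and 20 higher in these comparisons, and with the common median 26 were lower and 19 higher, where the second median turned to -0.0090.

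Among the core subunits, Ndufs1, the large iron-sulfur protein of the NADH-oxidizing module, stood apart from its neighbours. Its signal was 9982 (NCO), 11021 (ACO) and 8576 (ASO). It was thus highest on ACO and lowest on ASO, with -0.36 for ASO minus ACO, the lowest value of all members and the only one lower by 1.2-fold in that comparison. Ndufv1, the flavin-binding subunit that meets NADH in the same module, read 13356 (NCO), 13614 (ACO) and 16758 (ASO). The ASO array was the high one, with 0.30 against ACO and 0.33 against NCO. Ndufv2, an iron-sulfur partner of Ndufv1, read 8940.4 (NCO), 8337 (ACO) and 9177 (ASO), which left its differences at -0.10 and 0.14. Ndufs3, Ndufs7 and Ndufs8, core subunits nearer the quinone site, lay between -0.094 and 0.068 for ACO minus NCO. For ASO minus ACO they lay between -0.054 for Ndufs7 and 0.16 for Ndufs8.

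The largest difference in complex I was that of Ndufa8, an accessory subunit with paired cysteine motifs that faces the intermembrane space. Its signal was 1618 (NCO), 1559 (ACO) and 2888 (ASO), so that NCO and ACO lay close together and ASO apart. The difference was 0.87 against ACO and 0.82 against NCO, or 1.83-fold and 1.76-fold. A single probe at 1 spot measured it, and the difference kept its direction and stayed past 1.5-fold under quantile normalization, the common median and the correction by surrounding spots (0.89, 0.76 and 0.77 against ACO). Ndufa2, an accessory subunit with a thioredoxin-like fold, read 14582 (NCO), 13689 (ACO) and 18490.5 (ASO). It was high on ASO as well, with 0.43 against ACO and 0.34 against NCO.

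Ndufa5, an accessory subunit beside the quinone module, read 16284 (NCO), 15627 (ACO) and 18989 (ASO). The ASO value was 0.28 above ACO on this probe and 0.025 above it on the second. Ndufa6, of the LYR protein family, read 3690.2 (NCO), 3872 (ACO) and 4613 (ASO), a step from NCO to ASO of 0.32. Ndufc1, a small membrane-arm subunit, read 9095 (NCO), 9515 (ACO) and 11061 (ASO), with 0.28 for ASO minus NCO. Neither of these reached 1.2-fold against ACO. Ndufv3, an accessory subunit of the NADH-oxidizing module, read 20539 (NCO), 17922 (ACO) and 21896 (ASO). ACO was the low array there, with -0.20 against NCO and 0.29 for ASO minus ACO, while its second, dim probe gave -0.011 and 0.082.

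Of the B-named subunits, which sit mostly in the far part of the membrane arm, 8 of 10 were lower on ACO than on NCO. Ndufb2 read 11929 (NCO), 9044 (ACO) and 9824 (ASO), the lowest value of complex I for ACO minus NCO at -0.40. A second Ndufb2 probe read 3194 (NCO), 2946 (ACO) and 4216 (ASO), and the probes disagreed for ASO minus NCO at -0.28 and 0.40. Ndufb4 read 18641 (NCO), 17384 (ACO) and 21253 (ASO), with 0.29 for ASO minus ACO, but its second probe gave -0.0049. Ndufb8 lay just under 1.2-fold in the same comparison at 0.26, from signals of 28897 (NCO), 27128 (ACO) and 32556 (ASO). Ndufb5 was the member of complex I other than the core that stood highest for ACO minus NCO, at 0.087, yet its second probe gave -0.35. Ndufb6 read 8479 (NCO), 8124 (ACO) and 7145 (ASO), the lowest accessory subunit for ASO minus ACO at -0.18, with 0.082 on its other probe. For these 4 genes the probes differed from each other by as much as the arrays did.

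Ndufa9, an accessory subunit related to short-chain dehydrogenases, was the lowest member for ASO minus NCO. Its signal was 3853 (NCO), 3507 (ACO) and 3102 (ASO), lower on ACO than on NCO and lower again on ASO, at -0.13 and -0.17, or -0.31 in all. After correction by surrounding spots that value was -0.20. The remaining subunits of complex I lay within 1.2-fold in all 3 comparisons. Ndufab1, the mitochondrial acyl carrier protein, read 125 (NCO), 120.0 (ACO) and 118 (ASO). Ndufa4, the subunit now placed in complex IV, read 11086 (NCO), 10170.0 (ACO) and 11267 (ASO), and its paralog Ndufa4l2, a hypoxia-induced gene, read 238 (NCO), 243 (ACO) and 266 (ASO). The Ndufa4 pair differed by 0.15 and 0.10 for ASO minus ACO.

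Complex II is the succinate dehydrogenase of the citric acid cycle and has no mitochondrially encoded subunit. Its 4 members did not share a direction on these arrays. Sdha, the flavoprotein that oxidizes succinate, read 6681 (NCO), 7399 (ACO) and 6170.1 (ASO), with ACO highest: 0.15 against NCO and -0.26 for ASO minus ACO, just under 1.2-fold. Sdhd, one of the membrane anchors, read 2075 (NCO), 1562 (ACO) and 1833 (ASO), with ACO lowest: -0.40 against NCO and 0.22 for ASO minus ACO. The difference of Sdhd against NCO was past 1.2-fold, and with quantiles, the common median and surrounding spots it was -0.40, -0.38 and -0.47. Sdhb, the iron-sulfur subunit, and Sdhc, the other anchor, lay at 0.11 and 0.19 for ASO minus ACO on their brightest probes. Their second probes gave -0.051 and -0.098, so that neither had a settled direction.

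In complex III, the cytochrome bc1 complex, 6 of 8 members were below NCO on the ACO array and 6 of 8 were above ACO on the ASO array, with medians of -0.041 and 0.14. Both splits became 4 and 4 with quantiles and with the common median, and the first median turned to 0.0027 with quantiles. Uqcrb, a ubiquinone-binding subunit, read 7193 (NCO), 7078 (ACO) and 9066 (ASO). ASO was the high array on all 3 of its probes, with 0.35, 0.39 and 0.56 against ACO. Uqcr10, one of the smallest subunits, read 14269 (NCO), 14029 (ACO) and 18355 (ASO), with 0.39 for ASO minus ACO, 0.39 on a second probe and -0.087 on the remaining one. The core proteins differed from one another. Uqcrc1 read 4466 (NCO), 3793 (ACO) and 4680.1 (ASO), low on ACO, with -0.23 against NCO and 0.30 for ASO minus ACO.

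Uqcrc2 was printed at 10 spots and so had an error of its own. It read 11156 (NCO), 11402 (ACO) and 10548 (ASO), and its differences over the spots were 0.031 ± 0.083 (SD, 10 spots of 1 array pair) for ACO minus NCO and -0.11 ± 0.11 for ASO minus ACO. Single spots ran from -0.25 to 0.12 in the latter. Uqcrq, a subunit beside the cytochrome b core, read 13237 (NCO), 10952 (ACO) and 12826 (ASO). The ACO array was low on both of its probes, with -0.27 and -0.22 against NCO, and ASO lay 0.23 and 0.53 above ACO. Uqcrfs1, the Rieske iron-sulfur protein, stayed within -0.015 and 0.059 in these comparisons. Uqcrh, the hinge protein at cytochrome c1, showed 0.0020 for ASO minus ACO on its brightest probe and 0.54 on the other, the widest disagreement of that comparison. Uqcr11 lay at -0.14 and 0.049.

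**Figure D3:**
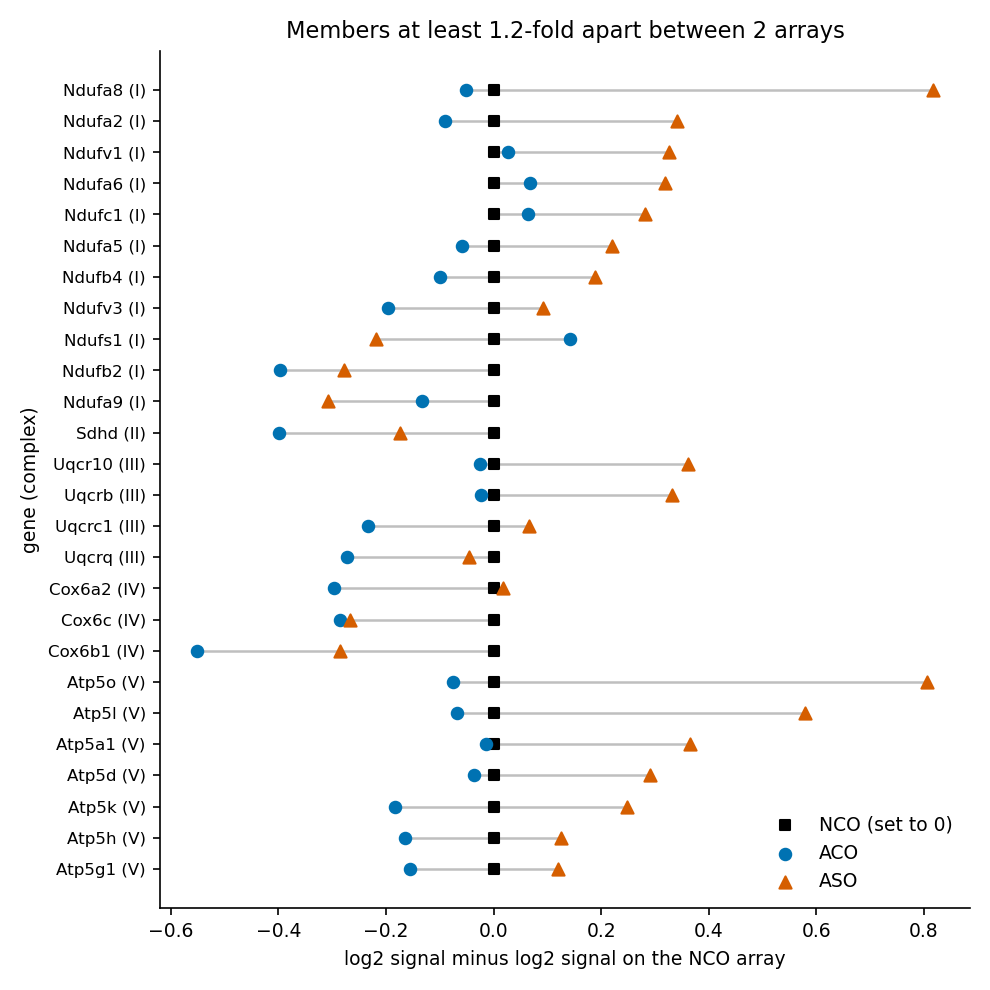
Signal of the 26 members at least 1.2-fold apart in any comparison, on ACO (blue circles) and ASO (orange triangles), as the log2 difference from the NCO array (black squares, set to 0), ordered by complex. There is 1 array per group and no error bar; the triangles of Ndufa8, Atp5o and Atp5l lie farthest to the right and the circle of Cox6b1 farthest to the left.

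Complex IV, cytochrome c oxidase, has 3 mitochondrially encoded catalytic subunits and a shell of nuclear ones, several of which have tissue isoforms. On ACO 10 of 16 members were lower than on NCO and on ASO 12 of 16 were higher than on ACO, with medians of -0.063 and 0.051. The latter turned to -0.045 with quantiles and -0.053 with the common median, with 7 and 6 members higher. Cox6b1, the subunit that links the monomers on the outer face, gave the lowest value of all members for ACO minus NCO. Its signal was 1992 (NCO), 1344 (ACO) and 1625 (ASO), with -0.55 for ACO minus NCO, 0.27 for ASO minus ACO and -0.29 for ASO minus NCO. ACO was lowest, and ASO lay between. Cox6b1 was the only member in the authors' deposited table, with values of 1856 (NCO), 1275 (ACO) and 1449.0 (ASO), which give -0.52 for ACO minus NCO.

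Cox6c, a small subunit of the membrane shell, read 10002 (NCO), 8198 (ACO) and 8301 (ASO), high on NCO and alike on the injected groups. Its difference for ACO minus NCO was -0.29, -0.25 with quantiles and -0.15 after correction by surrounding spots, the latter values under 1.2-fold. Cox4i1, the largest nuclear subunit, read 49277 (NCO), 42914 (ACO) and 48763 (ASO), again lowest on ACO, at -0.20 and 0.18. Cox5a and Cox5b lay at 0.19 and 0.14 for ASO minus ACO. Cox7a2, Cox7b, Cox7c and Cox8a stayed between -0.090 and 0.098 for ACO minus NCO on their brightest probes, but a second Cox7c probe gave 0.41 there. Cox7a2l, which joins complex IV to complex III, was lower on ACO than on NCO with all 3 probes, at -0.11, -0.044 and -0.17. Up to 19% of the pixels of the brightest Cox8a probe were saturated on ASO. Saturation of that share can hold down a spot mean, while the signals given here are spot medians.

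Cox6a1 was left out because its only probe was saturated on all 3 arrays, with 62%, 60% and 66% of its pixels at the scanner's limit on NCO, ACO and ASO. Its heart and muscle isoform Cox6a2 read 623 (NCO), 498 (ACO) and 631 (ASO), low on ACO, at -0.30 against NCO and 0.31 for ASO minus ACO. The muscle isoform Cox7a1 read 679 (NCO), 730.4 (ACO) and 756 (ASO), at 0.099 for ACO minus NCO. Cox8b, another muscle isoform, read 317 (NCO), 379 (ACO) and 362 (ASO), the highest member of that comparison at 0.23. Of 6 markers of muscle and heart, Ckm, Mylpf, Tnnt3, Myh6 and Tnni3 were not well above background, and only Acta1 was measured. Cox4i2, an isoform found in lung and under low oxygen, read 129 (NCO), 100.1 (ACO) and 122 (ASO), at -0.25 and 0.20. The isoforms known from testis were Cox6b2, with 308 (NCO), 345 (ACO) and 361 (ASO), Cox7b2, with 54.4 (NCO), 70.7 (ACO) and 69.4 (ASO), and Cox8c. Cox7b2 lay just inside the limit for detection, with a signal-to-noise score of 2.77 on NCO, and Cox8c scored -0.13 (NCO), 0.13 (ACO) and 0.60 (ASO), under the limit of 2.6 on all 3 arrays. At such low signals the added 50 draws differences towards 0.

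**Figure D4:**
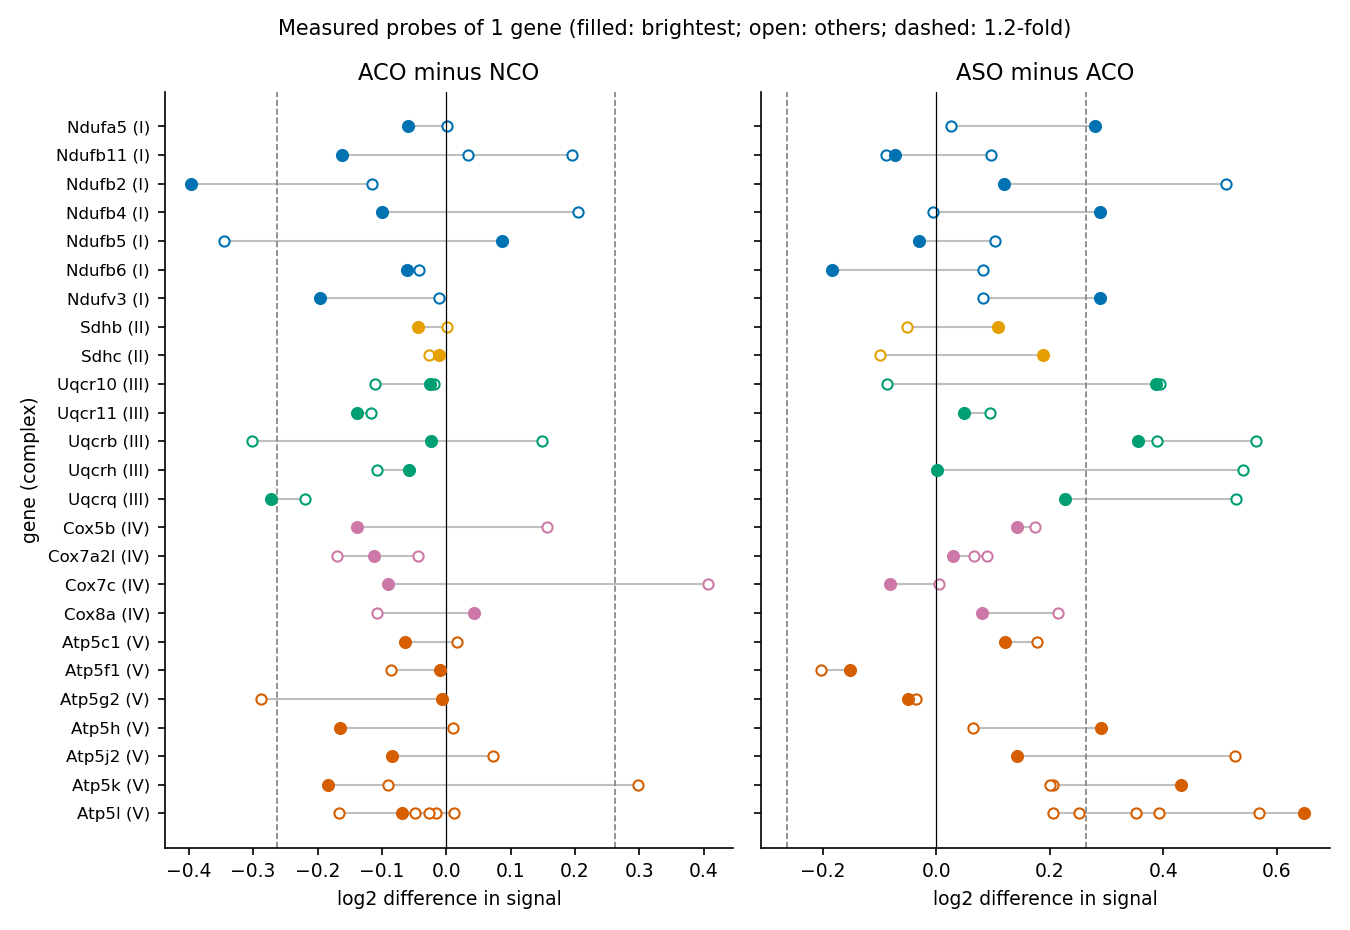
Difference in log2 signal (horizontal axis) of every measured probe of the 25 members with over 1 measured probe, for ACO minus NCO (left) and ASO minus ACO (right), with genes on the vertical axis by complex. Filled points are the brightest probe of a gene, open points the others and dashed lines mark 1.2-fold; all 6 Atp5l probes lie to the right of 0 for ASO minus ACO, while the probes of Uqcrh and Ndufb2 lie far apart.

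Complex V is the ATP synthase: its rotary F1 head makes ATP, its membrane part Fo carries protons, and a stalk joins them. It had a median of 0.17 for ASO minus ACO, beside 0.15 for complex II and 0.14 for complex III. The order of these 3 changed with the processing: complex II stood highest with quantiles, at 0.11 against 0.095, and without the filter on dim probes, at 0.15 against 0.14, and complex III stood highest with the mean over measured probes, at 0.25 against 0.18. The median of complex II rests on 4 genes. It was 0.034 with the common median, 0.037 with the mean over measured probes and -0.0002 with the spot mean, where 2 were higher and 2 lower. On ACO 13 of the 16 measured members of complex V were lower than on NCO, with a median of -0.066, and on ASO 12 of 16 were higher than on ACO, 7 of them by 1.2-fold. With quantiles and with the common median 11 were higher than on ACO, at medians of 0.095 and 0.051, so that the direction of complex V held under each scaling. Against NCO, 12 were higher on ASO with a median of 0.089, which was 0.029 with quantiles and -0.0012 with the common median. These medians lay above those of all genes by 0.105, 0.063 and 0.095.

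Atp5o, the subunit that ties the F1 head to the outer stalk, had the largest difference of all members. Its signal was 2044 (NCO), 1938 (ACO) and 3610.1 (ASO), again with NCO and ACO together and ASO apart. The difference was 0.88 against ACO and 0.81 against NCO, or 1.84-fold and 1.75-fold, from 1 probe at 1 spot. Atp5l, subunit g, which shapes the dimers of the enzyme in the membrane, read 15383 (NCO), 14672 (ACO) and 23012 (ASO). All 6 Atp5l probes were higher on ASO than on ACO, by 0.21 to 0.65, and all 6 were higher on ASO than on NCO, by 0.039 to 0.58. Between ACO and NCO the same probes lay from -0.17 to 0.013. No other member had its direction read by as many probes.

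Atp5k, subunit e, the partner of g in the dimers, read 17478 (NCO), 15381 (ACO) and 20767 (ASO). All 3 of its probes were higher on ASO than on ACO, by 0.43, 0.21 and 0.20. Atp5a1, the alpha subunit of the head, read 9989 (NCO), 9887 (ACO) and 12889 (ASO), high on ASO alone at 0.38. Atp5b, the catalytic beta subunit beside it, read 25535 (NCO), 25984 (ACO) and 26576 (ASO), with 0.032 in the same comparison. The head's subunits thus did not share 1 difference. Atp5d, the delta subunit of the central stalk, read 7752 (NCO), 7561 (ACO) and 9497 (ASO), with 0.33 for ASO minus ACO, while Atp5c1 (gamma) and Atp5e (epsilon) of that stalk lay at 0.12 and 0.12.

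The c ring of Fo is made from 1 protein encoded by 3 genes, Atp5g1, Atp5g2 and Atp5g3. Atp5g1 read 28024 (NCO), 25148 (ACO) and 30440.3 (ASO), low on ACO, with -0.16 and then 0.28. For ASO minus ACO Atp5g2 and Atp5g3 gave -0.049 and -0.069. Their mature protein is the same, and the genes did not share a direction on these arrays. In the outer stalk, Atp5h (subunit d) read 20631 (NCO), 18404 (ACO) and 22517 (ASO), with 0.29 for ASO minus ACO, 0.065 on its second probe. Atp5f1 (subunit b) was the lowest of the complex for that comparison, at -0.15 and -0.20 on its probes, from 5158 (NCO), 5124 (ACO) and 4608 (ASO). Atp5j, coupling factor 6, lay at 0.19, and Atp5j2, subunit f, at 0.14 and 0.53 on its probes. Atp5sl lay at -0.076 and -0.078. Atp5s was not compared: its signal-to-noise score was 1.88 (NCO), 6.43 (ACO) and 2.5 (ASO), against a limit of 2.6.

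Of the 25 members with over 1 measured probe, 17 had all probes on one side for ASO minus ACO, 15 higher and 2 lower. For ACO minus NCO 11 did, all lower, and for ASO minus NCO 11 were higher and 3 lower. The median range over the probes of a member was 0.16, 0.21 and 0.28 for ACO minus NCO, ASO minus ACO and ASO minus NCO. Of the 26 members past 1.2-fold in any comparison, 16 rested on 1 measured probe. Of the 8 with more among the 18 higher on ASO than on ACO, 6 had all probes higher. Ndufb4 and Uqcr10 did not.

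The mitochondrially encoded subunits were read on the same arrays, 12 of 13 with a measured probe (mt-Atp6 was not analysed here). Most were higher on the ASO array than on either other array: 11 of 12 against ACO, with a median of 0.22, and 11 of 12 against NCO, with a median of 0.29. With quantiles and the common median 10 and 11 were higher against ACO, at medians of 0.15 and 0.11, and 11 were higher against NCO under both. For ACO minus NCO 7 were higher and 5 lower, at 0.0068. COX1, the catalytic core of complex IV, read 38203 (NCO), 30964 (ACO) and 46091 (ASO), lowest on ACO at -0.30 and then 0.57. ND5, a proton-pumping subunit of complex I, read 7972 (NCO), 10677 (ACO) and 9437 (ASO), highest on ACO, with 0.42 and then -0.18. ND4 of the same arm read 14897 (NCO), 15051 (ACO) and 20522 (ASO), level between NCO and ACO and 0.45 higher on ASO. ND6 read 178 (NCO), 135 (ACO) and 159.5 (ASO), lowest on ACO, and was the only one lower on ASO than on NCO, at -0.12.

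Nuclear subunits that the names leave out were few. Cyc1, cytochrome c1 of complex III, read 11713 (NCO), 11748 (ACO) and 11115 (ASO), with -0.080 for ASO minus ACO. Usmg5, a small Fo subunit also named Atp5md, lay at 0.21 and 2010107E04Rik, also named Atp5mpl, at 0.054 in that comparison.

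Genes that build, feed or regulate the chain gave differing splits for ASO minus ACO. Assembly factors and the citric acid cycle were mostly lower and glycolysis mostly higher. The median of glycolysis turned with the other scalings, but relative to all genes it turned with quantiles and not with the common median. Of 41 measured assembly factors (50 listed), 13 were higher and 28 lower, with a median of -0.067. Of all genes 53.5% were lower, with a median of -0.016. Genes with signals from 777 to 2533, where many of these factors lay, had a median of -0.057. The highest was Ndufaf8 at 0.53, a complex I factor, and the lowest Nubpl at -0.40, which delivers iron-sulfur clusters to complex I. Of the 17 genes of pyruvate dehydrogenase and the citric acid cycle, 2 were higher and 15 lower, with a median of -0.10, -0.20 with quantiles and -0.22 with the common median. Less the median of all genes, these were -0.085, -0.17 and -0.0975. Idh3a, the catalytic subunit of NAD-linked isocitrate dehydrogenase, was lowest there: it read 4659 (NCO), 4901 (ACO) and 3610.1 (ASO), a difference of -0.44. Fh1, fumarase, was highest at 0.11. Pdha1, the E1 subunit of pyruvate dehydrogenase, read 1451 (NCO), 1235 (ACO) and 1045 (ASO), lower at each step and -0.45 for ASO minus NCO.

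Of 12 measured regulators of mitochondrial gene expression (16 listed), 11 were lower on ASO than on ACO, with a median of -0.095 and 11 or 12 lower under the other scalings. All genes with signals from 248 to 777 and from 777 to 2533 had medians of -0.018 and -0.057 in that comparison. The exception was Ppargc1a, the PGC-1alpha coactivator, at 0.080. Polg2, of the mitochondrial DNA polymerase, was lowest at -0.33 after having been highest for ACO minus NCO at 0.26. Among 13 measured electron carriers and related genes (15 listed), 6 were higher and 7 lower for ASO minus ACO, 3 and 10 with the common median. Cycs, cytochrome c, lay at -0.14, and Atpif1, the inhibitor of ATP synthase, at 0.28, with signals of 36089.6 (NCO), 33286 (ACO) and 40297 (ASO). Coq8a was highest at 0.39 and Etfdh, which feeds electrons from fatty acid oxidation to ubiquinone, lowest at -0.27. Glycolytic genes gave 10 higher and 5 lower of 15 measured, at 0.096, which turned to -0.079 with quantiles and -0.018 with the common median. Relative to the median of all genes, these medians of glycolysis were 0.11, -0.045 and 0.099. The 77 measured mitochondrial ribosomal protein genes were even, with 38 higher, 39 lower and a median of -0.0077; with the common median 15 were higher, at -0.0017 relative to all genes.

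Markers of other cell types differed between the same arrays. For ASO minus ACO, 7 of 8 microglial markers were higher at a median of 0.39, with summed signals of 20359 (NCO), 20308 (ACO) and 25914 (ASO), and 6 of 6 astrocyte markers (4 with the common median) at 0.18, with sums of 19559, 19313 and 23535. For ACO minus NCO, 6 of 6 oligodendrocyte markers were lower at -0.15, with sums of 75425, 66490.2 and 77936 on NCO, ACO and ASO, and for ASO minus ACO 5 of 6 were higher at 0.15 (3 of 6 with the common median). Choroid plexus markers gave 5 of 6 higher for ACO minus NCO at 0.53, all but Ttr, with sums of 22535, 18074 and 18475, and 5 of 6 lower for ASO minus ACO at -0.25. The 4 measured endothelial markers (Pecam1 was below the limit) were lower on ACO than on NCO, at -0.14, and 3 of the 4 were higher on ASO than on ACO, at 0.22, with sums of 7095, 6651 and 7003. Of the 4 measured blood markers, 3 were lower on ACO than on NCO, at -0.16, and 4 were higher on ASO than on ACO (3 with quantiles or the common median), at 0.21, with sums of 38504, 35891 and 41345. Oligodendrocyte, endothelial and blood markers were thus mostly low on ACO, as the members were. Astrocyte and microglial markers were not, with 3 of 6 and 4 of 8 higher for ACO minus NCO, at medians of 0.0006 and -0.0003. Neuronal markers were split, with 2 of 6 higher for ACO minus NCO and 3 of 6 for ASO minus ACO, while hippocampal neuron markers had medians of -0.022 (0.0024 with the common median) and -0.10. No listed marker of the glial and choroid plexus lists was below the limit of detection. The part of these cell types in the members' differences was not tested.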

How the data were processed

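Hippocampal RNA of the groups NCO, ACO and ASO was measured on 1 array each, grouped by the labels, with 45220 spots an array, of which 43020 were gene spots. Foreground and background are intensities that the authors obtained at 532 nm on a GenePix 4000B scanner with GenePix Pro 6.1.0.4, without normalization, per the file headers. That program also gave the deposited signal-to-noise score and the share of saturated pixels in percent. The submitters' processing notes name Agilent Feature Extraction, but the files hold no processed signal of it. The authors' deposited value table holds intensities of 475 probes. Each column followed a straight line of the foreground median within 0.05, with 44.2, 46.8 and 43.1 subtracted and slopes of 1, 0.917 and 0.893 for NCO, ACO and ASO (column medians 116.8, 97.4 and 113.3), so it is linear, uncentred and in the direction of signal; the origin of the slopes is unknown.

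The normexp correction of limma 3.58.1 (R 4.3.3, offset 0) was fitted on all spots. Control spots were left out, arrays were scaled to a common 75th percentile (factors 1.06, 0.949 and 0.991), 50 was added before log2 and removed from the signals printed, and spots of a probe were averaged. A probe entered with a median signal-to-noise score of at least 2.6 on all 3 arrays, under 50% saturated pixels on at least 2 and no bad-spot mark. The brightest entered probe stood for a gene. A RefSeq gene table (GRCm38.p6) gave the names: 26467 by accession, 2591 by symbol and 490 by synonym, while 904 retained the name in the file and 8857 were unnamed; members kept the names in the files. Background correction, scaling and log2 were tested on simulated arrays with a constant gain per array. That test did not cover differences between arrays that vary with signal. Later steps ran in Python 3.11.15.

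The members and gene lists were chosen with earlier results of these data known. The values shown include members at least 1.2-fold apart in any comparison, the extremes of each complex, tissue isoforms and members not well above background. The extremes of other lists and further members within 1.2-fold, such as Atp5b, Cox4i1 and Ndufv2, are shown too. Values of 1 member are not reported here. Scaling, background, spot summary, added constant, filters, probe choice and position were varied. With 1 array a group, the number of arrays limits the precision, and no test was made.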

Additional observations from a re-analysis of the deposited data

How the results depend on the processing

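The 3 median differences of the members and their 12 counts past 1.2-fold and 1.5-fold were recomputed under 9 other settings. The SD between repeat spots of single probes is a loose measure for a median over 82 members, so sign changes are given too. The median for ASO against NCO, 0.046 with 51 members higher, turned to -0.0033 with 40 higher under quantile normalization and to -0.044 with 31 higher under the common median. The medians of the other comparisons kept their sign under all 9. Counts that moved by over 1.5 times follow. Scaling to a common median moved the median for ASO against ACO to 0.0023, with 7 members higher and 5 lower by 1.2-fold, and left 5 higher and 7 lower for ASO against NCO. Quantile normalization gave 2 lower for ASO against ACO. For ASO against NCO, correction by surrounding spots gave 7 higher and 1 lower by 1.2-fold, and the spot mean 2 lower by 1.2-fold and 4 higher by 1.5-fold. With 16 added in place of 50, 1 member was higher by 1.2-fold for ACO against NCO. The causes were not tested. The mean over probes reversed Ndufb2 for ASO against NCO to 0.058. Of 363 values of members past 1.2-fold, 362 kept their direction and 303 stayed past it. The authors' deposited table holds 1 member, so medians and counts were not run on it. No replicate could be left out and no paired analysis was possible because each group has 1 array. Signal limits what can be said of the saturated Cox6a1 and of the dim Atp5s, Cox7b2 and Cox8c.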
